A study of Mus musculus with 6 samples.

Results

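The mitochondrial genome transcripts are the 37 rows, of 54532 genes in the deposited expression table, whose chromosome is given as MT. They comprise 13 protein-coding genes, 2 ribosomal RNA genes and 22 transfer RNA genes, and all 37 had the same coordinates in the GENCODE M21 annotation of the mouse build GRCm38. The libraries were 3 from wild-type (WT) macrophages (replicates 1 to 3) and 3 from progranulin knockout (PGRN KO) macrophages (replicates 4 to 6), all of the C57BL/6J strain. According to the labels the cells were recruited from the peritoneal cavity, plated at 2000000 cells per well and challenged for 6 h with 1 Candida albicans cell per macrophage, while the study's methods and legends give bone marrow-derived macrophages and a different ratio. Every library was challenged, so the comparison asks how the genotypes differ during the response to the yeast and no unchallenged baseline enters it. The 2 genotypes were obtained from separate suppliers, per the study's methods, so a difference of source cannot be told apart from the genotype. The labels do not say that the replicates came from separate animals, and the p-values then measure the spread between these libraries, which may be technical.

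Mitochondrial DNA is a small circle that is read on both strands into long RNAs covering many genes. The transfer RNAs lie between the other genes and are cut out, which frees the ribosomal and messenger RNAs. Most of the messengers then receive short poly(A) tails, and their products are core subunits of complexes I, III, IV and V of oxidative phosphorylation. The ribosomal RNAs build the organelle's own ribosome. In macrophages the respiratory chain is also known as a source of reactive oxygen species and of signals in innate immunity.

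Progranulin's own gene, Grn, was at 323 to 337 FPKM (fragments per kilobase of gene model, scaled to library size) in the WT libraries and at 0 to 0.0167 in the PGRN KO libraries, as the labels state. The libraries held 15996786 to 17551619 counted fragments, recovered from FPKM and gene length. The summed level of 5 macrophage markers was 7081 to 7414 FPKM in WT and 7228 to 9712 FPKM in PGRN KO. Such a sum follows its most abundant genes. Taken 1 by 1 in the test described below, 4 of the 5 had a negative log2 difference and 1 a positive one. Only 1 was called, lower in PGRN KO, where 13.8% of all tested genes were called lower. Summed markers of other cells were low next to the macrophage sum, and most differed by genotype. B cell markers (4 genes) were at 1.41 to 2.47 FPKM in WT and 6.31 to 8.77 in PGRN KO, mast cell markers (4 genes) at 2.01 to 2.76 and 8.97 to 13.7, T cell markers (4 genes) at 2.06 to 2.12 and 2.78 to 4.17, and large peritoneal macrophage markers (3 genes) at 6.92 to 7.53 and 9.22 to 10.1. Neutrophil markers (4 genes) were at 67.8 to 73.3 FPKM in WT and 42.4 to 43.7 in PGRN KO, with Ly6g at 0 in every library, and mesothelial markers (4 genes) were at 0.254 to 0.319 and 0.119 to 0.329 FPKM. Few of these markers were abundant enough for the test. Of 2 neutrophil markers tested (log2 differences of -1.07 and -0.06) 1 was called, lower. Both B cell and both mast cell markers tested were called higher, as was 1 of 2 large peritoneal macrophage markers. The 1 T cell marker tested was not called. The part of these cells in the mitochondrial values was not tested, and in bulk samples fewer cells of a type and less RNA per cell cannot be told apart. PGRN KO replicate 6 stood apart from the other libraries. When limma estimated a quality weight for each library, this one received 0.0899 and the other 5 between 1.07 and 3.79. Results are therefore given with it and without it.

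Mitochondrial genes held a small share of the libraries, 0.733%, 0.720% and 0.710% of counted fragments in WT replicates 1 to 3. The share was 0.645% in PGRN KO replicate 4, 0.691% in replicate 5 and 0.440% in replicate 6. All PGRN KO values were below all WT values, and replicate 6 was far below the other two. The mean was 0.721% ± 0.0115 (SD, n = 3) in WT and 0.592% ± 0.134 (SD, n = 3) in PGRN KO, or 0.668% ± 0.0324 (SD, n = 2) without replicate 6. No test was made on this summed share. By biotype, messenger RNAs took 0.632% ± 0.0110 of WT fragments and 0.508% ± 0.131 of PGRN KO fragments (SD, n = 3 each), and this was 0.582% without replicate 6. The ribosomal RNAs took 0.0865% ± 0.000703 and 0.0819% ± 0.00313 (SD, n = 3 each), and the transfer RNAs took 0.00270% ± 0.000310 and 0.00267% ± 0.000147 (SD, n = 3 each). The messengers thus carried nearly all of the difference in the summed share, while the transfer RNA share overlapped between the genotypes.

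Levels of the 15 protein-coding and ribosomal genes spanned more than 3 orders of magnitude on the FPKM scale, which divides by gene length. mt-Co1, a catalytic core subunit of complex IV, was highest, with a mean of 2187 FPKM over the 6 libraries. The complex I subunit gene mt-Nd1 (605 FPKM) and the complex III gene mt-Cytb (501 FPKM) followed, with mt-Nd1 above mt-Cytb in every library. The 12S ribosomal RNA mt-Rnr1 (335.5 FPKM) and the 16S ribosomal RNA mt-Rnr2 (325.9 FPKM) came next and could not be ordered, because mt-Rnr2 was the higher in every WT library and mt-Rnr1 the higher in every PGRN KO library. The complex I genes mt-Nd6 (255 FPKM), mt-Nd5 (249.6 FPKM), mt-Nd2 (210.1 FPKM) and mt-Nd4 (204.5 FPKM) formed a group whose ranges overlapped. A gap separated these 7 messengers from the other 6, which were mt-Co2 (32.1 FPKM), mt-Atp6 (10.5 FPKM), mt-Co3 (9.89 FPKM), mt-Nd3 (6.10 FPKM), mt-Nd4l (3.18 FPKM) and mt-Atp8 (0.900 FPKM). mt-Co1 alone supplied 57.8% to 58.6% of mitochondrial messenger fragments in WT and 60.6% to 64.2% in PGRN KO.

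**Figure D1:**
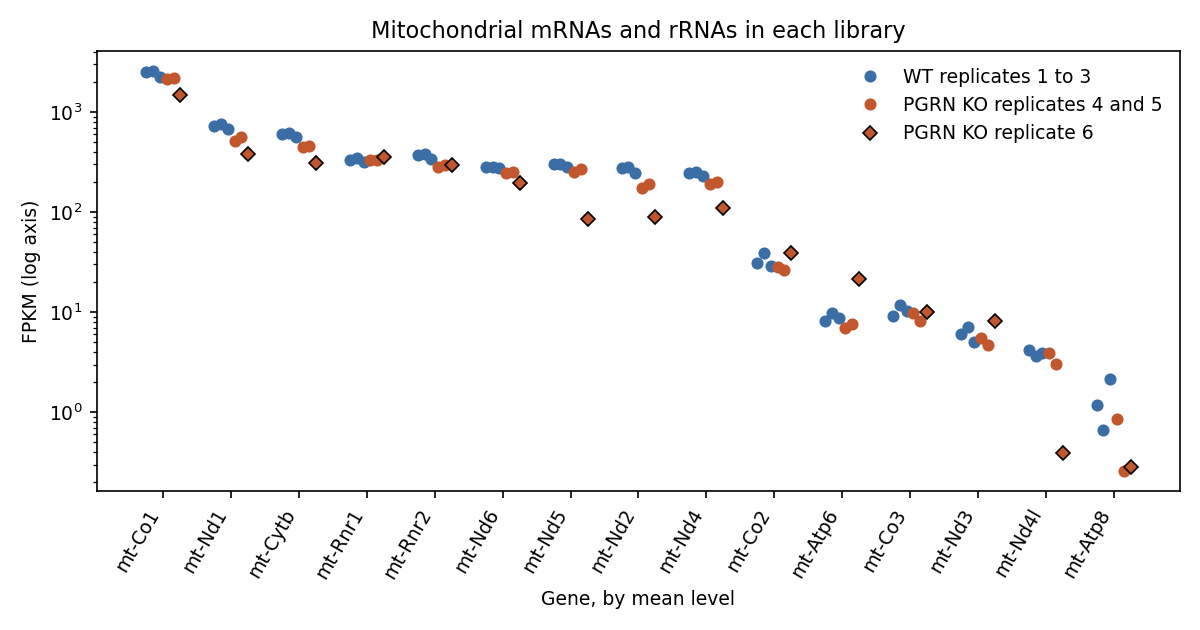
FPKM on a log axis of the 15 protein-coding and ribosomal mitochondrial genes in each of the 6 libraries, with WT and PGRN KO points in separate colours and PGRN KO replicate 6 marked on its own. mt-Co1 lies at 1487 to 2587 FPKM, while mt-Co2, mt-Atp6, mt-Co3, mt-Nd3, mt-Nd4l and mt-Atp8 lie at or below 39.5 FPKM.

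All of the low messengers other than mt-Atp8 share nearly their whole sequence with annotated nuclear gene models. Each annotated gene was cut into words of 31 bases, and the words also present in a nuclear gene model were counted. mt-Co2 shared 100% of its words, mt-Co3 99.9%, mt-Atp6 99.5%, mt-Nd4l 98.9% and mt-Nd3 98.1%. Those 5 genes were counted at 0.390 to 39.5 FPKM over all libraries. Of the 7 higher messengers, mt-Co1 shared 63.9% and mt-Nd4 62.8%, while mt-Nd5 (16.8%), mt-Nd2 (13.5%), mt-Nd6 (7.36%), mt-Cytb (6.55%) and mt-Nd1 (0%) shared little. Nuclear sequence between annotated models was not searched, and mt-Atp8 was low with 7.47% of words shared with the models. It is the shortest of the messengers, encodes a small subunit of complex V, and overlaps mt-Atp6 over MT:7927-7969, so fragments in those 43 bases belong to both genes. Its sequence is shown because a fragment that touches the capitals could not be given to 1 gene by position alone (GENCODE M21, GRCm38, MT:7766-7969, plus strand, overlap in capitals).
mt-Atp8: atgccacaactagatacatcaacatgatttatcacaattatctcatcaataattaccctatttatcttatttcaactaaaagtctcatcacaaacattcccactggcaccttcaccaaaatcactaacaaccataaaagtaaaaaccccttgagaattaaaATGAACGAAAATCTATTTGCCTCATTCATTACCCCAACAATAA

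Of 21 nuclear gene models with any shared word, 7 had at least 50% of their own words in common with the mitochondrial genome. All 7 lie on chromosome 1, minus strand, between bases 24611535 and 24616197 of GRCm38, in the order of the mitochondrial genes, and between them they cover the 5 low messengers and parts of mt-Co1 and mt-Nd4. The words of mt-Nd2, mt-Nd5, mt-Nd6 and mt-Cytb were found in models on other chromosomes. Gm28661 was identical to mt-Co2 over 681 bases, Gm10925 to mt-Atp6 over 678, Gm28437 to mt-Co3 over 783, Gm10222 to mt-Nd4l over 294, and Gm28439 to mt-Nd4 over 876. A further model on chromosome 2, Gm13340, of the same length as mt-Co1 (1545 bases), had 45.2% of its words in common with that gene and a mean of 1.02 FPKM. The chromosome 1 block spanned 4663 bases there and 4662 in the mitochondrial genome, and the gap between the stretches of mt-Co2 and mt-Atp6 was 233 bases in both. In the mitochondrial genome that gap holds mt-Tk and the part of mt-Atp8 before its overlap with mt-Atp6. The sequence of the chromosome 1 gap was not examined, so a nuclear copy of mt-Atp8 there would not show in its shared words.

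Only 2 of the 7 pairs held any difference. Inside the aligned stretches these are the only bases by which a read could be assigned. Fragments that run past a stretch were not considered, because only annotated models were aligned. Gm28438 differed from mt-Nd3 at 1 of 345 bases (T3C, counted from 1 at the first base of mt-Nd3, with the mitochondrial base first). Gm29216 matched the last 492 bases of mt-Co1 with 6 differences, T1056A, C1057T, A1059G, A1060G, C1062A and A1066T, counted from the first base of mt-Co1. The first 60 bases of each matched stretch are shown from GENCODE M21 (GRCm38) with the differing bases in capitals. They lie at MT:6381-6440 (plus) and chr1:24616138-24616197 (minus) for the mt-Co1 pair, and at MT:9459-9518 (plus) and chr1:24613060-24613119 (minus) for the mt-Nd3 pair.
mt-Co1: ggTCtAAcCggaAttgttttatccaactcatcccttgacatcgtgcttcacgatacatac
Gm29216: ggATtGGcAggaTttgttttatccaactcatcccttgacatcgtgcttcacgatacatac
mt-Nd3: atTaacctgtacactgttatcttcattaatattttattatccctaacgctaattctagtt
Gm28438: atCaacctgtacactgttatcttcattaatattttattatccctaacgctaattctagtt

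Counts of the nuclear models were close to those of their mitochondrial twins in some pairs and far below in others. Gm28661 had 452, 442 and 407 fragments in WT and 357, 419 and 517 in PGRN KO, next to 353, 394 and 361, and 333, 339 and 467, for mt-Co2. Gm10925 had 70, 78 and 98 fragments in WT and 89, 97 and 77 in PGRN KO, next to 94, 98 and 108, and 82, 98 and 254, for mt-Atp6. Gm28437 had 78, 90 and 80 fragments in WT and 90, 70 and 87 in PGRN KO, next to 121, 138 and 145, and 133, 122 and 135, for mt-Co3. The other 4 models were lower than their partners in mean FPKM over the 6 libraries. Gm10222 was at 1.52 against 3.18 FPKM for mt-Nd4l, Gm28438 at 0.845 against 6.10 for mt-Nd3, Gm28439 at 1.40 against 204.5 for mt-Nd4, and Gm29216 at 8.52 against 2187 for mt-Co1, the last 2 being partial copies. A fragment inside an identical stretch cannot be told apart between the 2 sites. The treatment of fragments with several matches in the authors' counting is not stated in the labels or methods, and its part in the low values of these 5 messengers was not tested. Their levels are therefore uncertain, and so is their order next to the other messengers. The same uncertainty holds for the shared parts of mt-Co1 (63.9% of its words) and mt-Nd4 (62.8%). It also holds for the shares of fragments given above, which include all of these genes.

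**Figure D2:**
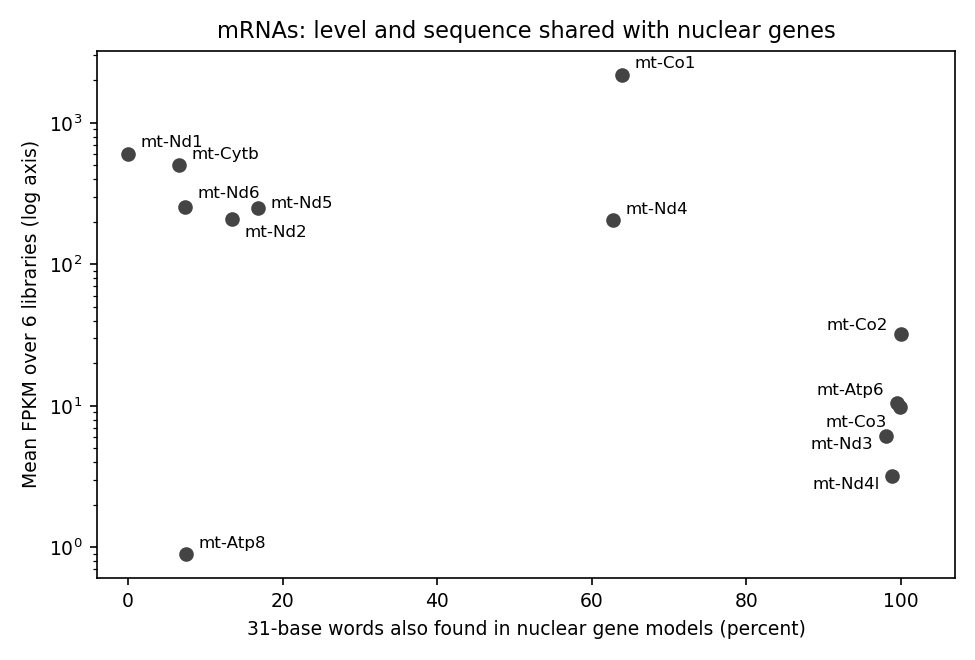
Mean FPKM over 6 libraries (log axis) of the 13 mitochondrial messengers against the percent of their 31-base words that also occur in a nuclear gene model. The 5 genes with at least 98.1% of words shared have means of 3.18 to 32.1 FPKM, and mt-Atp8 is low with 7.47% shared. Nuclear sequence outside annotated models was not searched.

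The 7 higher messengers, mt-Nd1, mt-Nd2, mt-Nd4, mt-Nd5, mt-Nd6, mt-Cytb and mt-Co1, were each lower on the deposited FPKM scale in every PGRN KO library than in any WT library. The library size behind the FPKM was 0.925 to 1.03 times the counted fragments in WT and 1.00 to 1.09 times in PGRN KO. When libraries were scaled to their counted fragments instead, 4 of the 7 (mt-Nd1, mt-Nd2, mt-Nd4 and mt-Cytb) still did not overlap, and mt-Co1, mt-Nd5 and mt-Nd6 did through PGRN KO replicate 5, with the same split on the TPM scale. These 2 readings were added after the data were seen. The 16S RNA mt-Rnr2 was lower in every PGRN KO library on all 3 scales. The 12S RNA mt-Rnr1 overlapped on the FPKM and TPM scales and was higher in every PGRN KO library when scaled to counted fragments. Differences were tested with limma on log2(FPKM + 1) over 8882 genes with a mean of at least 1 FPKM, with Benjamini-Hochberg adjustment over all of them. 27 mitochondrial genes (12 protein-coding, both ribosomal and 13 transfer RNA genes) passed that filter, and mt-Atp8 and 9 transfer RNA genes did not. 4 of the 27 passed an adjusted p of 0.05, mt-Nd1, mt-Rnr2 and mt-Th lower and mt-Tw higher in PGRN KO, where 24.2% of all tested genes were called, 13.8% lower and 10.4% higher. Without PGRN KO replicate 6, 10 of the 27 were called, 9 lower and 1 higher, where 41.3% of all tested genes were called, 25.1% lower and 16.2% higher. Counted in either direction, neither share was above that of all genes. Without WT replicate 2 or without WT replicate 3 limma called 0 of the 27, with 6 and 7 at an unadjusted p under 0.05. Calls over all 8882 tested genes also fell in those fits, to 855 and 883, from 2151 with all 6 libraries. With limma voom on the fragments of all 6 libraries 4 of the 27 were called, and 2267 of all tested genes.

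By range on the FPKM scale, 10 of the 27 genes had every PGRN KO value below every WT value, where 27.6% of all tested genes did, and 1 had every value above, where 21.2% of all tested genes did. Scaled to counted fragments, 6 of the 27 lay below (19.7% of all tested genes) and 2 above (27% of all tested genes), and on the TPM scale 6 lay below (20.1% of all tested genes) and 1 above (23.1% of all tested genes). The 10 on the FPKM scale were the 7 higher messengers, mt-Rnr2 and the transfer RNAs mt-Th and mt-Tp. mt-Th had 0 to 8 fragments per library. For mt-Tp the margin was narrow, 185.3 FPKM in PGRN KO replicate 4 against 186.4 FPKM in WT replicate 1. The group of 7 (under 90% of words shared and over 100 fragments per library on average) was chosen after its values were seen and carries no test. Its median log2 difference was -0.57, and the median over all tested genes was -0.03. Without replicate 6 the medians were -0.30 and -0.04. The log2 difference was negative for all 7 genes in each of the 18 other settings tried, which reuse the same libraries and are not independent.

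**Figure D3:**
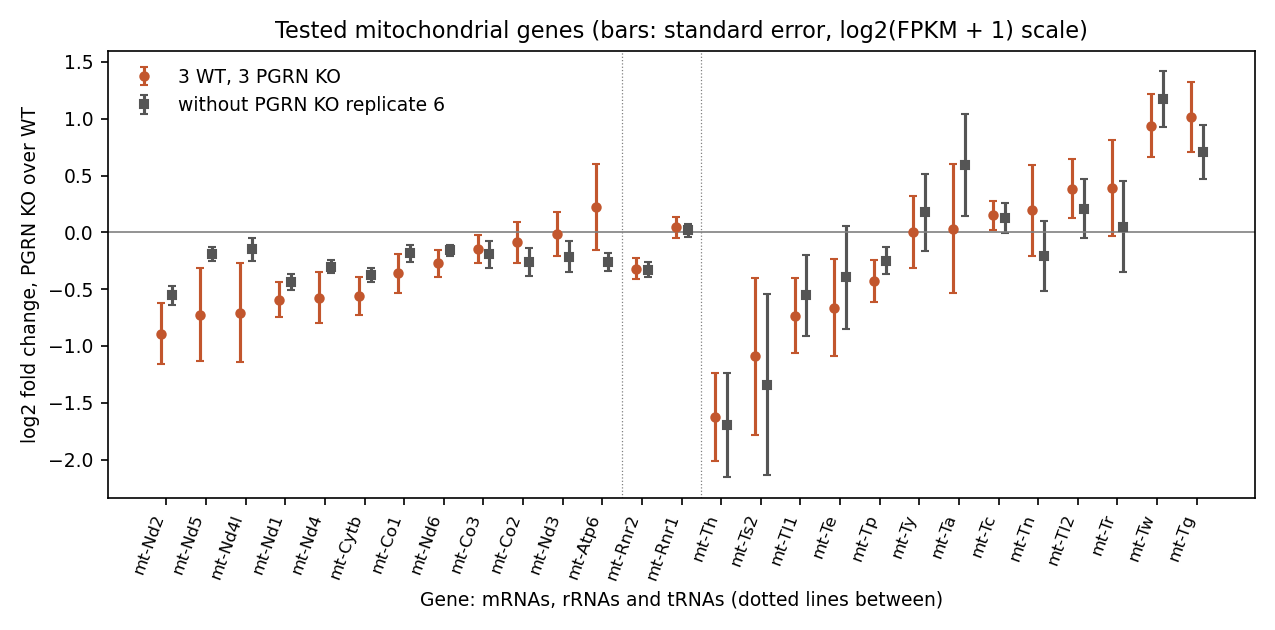
Log2 difference (PGRN KO minus WT, limma on log2(FPKM + 1)) of the 27 tested mitochondrial genes with standard errors, for all 6 libraries and without PGRN KO replicate 6. The 7 higher messengers lie between -0.89 and -0.27 with all libraries and between -0.55 and -0.16 without replicate 6, and mt-Rnr1 lies at 0.05 and 0.02.

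Among the ribosomal RNAs, mt-Rnr1, the 12S RNA of the small mitochondrial ribosomal subunit (ENSMUSG00000064337, MT:70-1024), was at 328, 347 and 315 FPKM in WT and at 336, 333 and 353 in PGRN KO. The groups overlapped, and the log2 difference was 0.05 ± 0.09 (SE; limma adjusted p = 0.742). mt-Rnr2, the 16S RNA of the large subunit (ENSMUSG00000064339, MT:1094-2675), was at 368, 379 and 339 FPKM in WT and at 281, 296 and 293 in PGRN KO. The groups did not overlap, replicate 6 lay between the other two PGRN KO libraries, and the mean was 80.0% of WT. The log2 difference was -0.32 ± 0.09 (SE; limma adjusted p = 0.0476), and -0.33 without replicate 6 (limma adjusted p = 0.0111). The call was close to its threshold and was kept in 8 of 18 other settings, with adjusted p from 0.00233 to 0.199. Leaving out any 1 of the other 5 libraries ended the call, at an adjusted p of 0.199, 0.174 and 0.0891 without WT replicates 1, 2 and 3, and 0.132 and 0.0904 without PGRN KO replicates 4 and 5. It was also lost on the TPM scale (0.101), with total fragments as library size (0.0974) and after quantile normalization (0.143).

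The 2 ribosomal genes sit next to each other, separated only by a transfer RNA gene, and their ratio within a library does not depend on library size. mt-Rnr2 over mt-Rnr1, as a ratio of FPKM, was 1.12, 1.09 and 1.07 in WT and 0.836, 0.887 and 0.830 in PGRN KO. The means were 1.096 ± 0.0241 and 0.851 ± 0.0312 (SD, n = 3 each), and the groups did not overlap. This ratio was chosen among many possible ones and carries no test. The 2 genes differ in length (955 and 1582 bases), and the part of length in the ratio was not tested. The sum of the pair was little affected in replicate 6. Ribosomal RNAs were 11.9% to 12.1% of mitochondrial fragments in WT, 12.4% in PGRN KO replicates 4 and 5, and 18.2% in replicate 6. The kit selects polyadenylated RNA, per the study's methods, and mitochondrial ribosomal RNAs carry only short tails, so these values are what passed that selection.

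Complex I, which takes electrons from NADH, has 7 subunits encoded in mitochondrial DNA, and 5 of them were among the 7 higher messengers. mt-Nd1 (ENSMUSG00000064341, MT:2751-3707) was at 728, 763 and 683 FPKM in WT and at 513, 557 and 385 in PGRN KO. Every PGRN KO library was below every WT library, and replicates 4 and 5 alone were at 73.8% of the WT mean. WT averaged 725 ± 40.05 FPKM and PGRN KO 485 ± 89.5 FPKM (SD, n = 3 each), which is a log2 difference of -0.59 ± 0.15 (SE; limma adjusted p = 0.0336), or -0.44 without replicate 6 (limma adjusted p = 0.00519). The call was kept in 9 of 18 other settings, and the adjusted p ranged from 0.00141 to 0.123. Leaving out WT replicate 1 (0.123), 2 (0.120) or 3 (0.0817) or PGRN KO replicate 4 (0.0647) ended the call, as did the TPM scale (0.0939), total fragments as library size (0.0672) and quantile normalization (0.116).

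mt-Nd2 (ENSMUSG00000064345, MT:3914-4951) was at 279, 281 and 245 FPKM in WT and at 173, 192 and 90.1 in PGRN KO. All 3 PGRN KO libraries were low and replicate 6 was at 49.4% of the mean of the other two. The log2 difference of -0.89 ± 0.27 (SE) missed the threshold with all libraries (limma adjusted p = 0.0542) and was -0.55 without replicate 6 (limma adjusted p = 0.00412). This was the largest difference among the messengers in both fits. mt-Nd4 (ENSMUSG00000064363, MT:10167-11544) was at 245, 252 and 228 FPKM in WT and at 192, 199 and 110.5 in PGRN KO. Its log2 difference was -0.57 ± 0.22 (SE; limma adjusted p = 0.105), and -0.30 without replicate 6 (limma adjusted p = 0.0106). Its nuclear partner Gm28439, which matches its first 876 bases, had 27 to 29 fragments per WT library and 14, 23 and 5 in PGRN KO.

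mt-Nd5 (ENSMUSG00000064367, MT:11742-13565) was the messenger in which replicate 6 weighed most among the 7 higher ones. It was at 306, 306 and 281 FPKM in WT, and at 252, 267 and 85.9 in PGRN KO. Replicate 6 was at 33.1% of the mean of the other two, which were themselves at 87.3% of the WT mean. The log2 difference was -0.72 ± 0.41 (SE; limma adjusted p = 0.232) with replicate 6 and -0.19 without it (limma adjusted p = 0.0482). mt-Nd6 (ENSMUSG00000064368, MT:13552-14070) is the one messenger read from the other strand, and its end overlaps that of mt-Nd5 by 14 bases. It was at 280.4, 282 and 274 FPKM in WT and at 248, 252 and 196 in PGRN KO. The log2 difference was -0.27 ± 0.12 (SE; limma adjusted p = 0.139), the smallest of the 7, and -0.16 without replicate 6 (limma adjusted p = 0.0363). The labels and methods do not state whether counting was by strand, so mt-Nd6 RNA and antisense RNA of the opposite strand cannot be told apart in these values.

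The other 2 complex I messengers, mt-Nd3 and mt-Nd4l, were low and shared their sequence with chromosome 1. mt-Nd3 (ENSMUSG00000064360, MT:9459-9806) was at 6.01, 7.19 and 5.10 FPKM in WT and at 5.48, 4.71 and 8.15 in PGRN KO, which overlap (log2 difference -0.02, limma adjusted p = 0.957). Without replicate 6 they still overlapped and the log2 difference was -0.21 (limma adjusted p = 0.249). mt-Nd4l (ENSMUSG00000065947, MT:9877-10173) had 21, 16 and 21 fragments in WT and 20, 17 and 2 in PGRN KO. The 2 fragments of replicate 6 have an exact Poisson interval of 0.242 to 7.22, and the 17 of replicate 5 one of 9.90 to 27.2, for counting error only. The difference between the genotypes did not pass the test (limma adjusted p = 0.268), and the genotypes overlapped with and without replicate 6. Its log2 difference was -0.71 ± 0.43 (SE), and -0.15 without replicate 6 (limma adjusted p = 0.297).

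mt-Cytb (ENSMUSG00000064370, MT:14145-15288), cytochrome b, is the only subunit of complex III encoded in mitochondrial DNA. It was at 605, 619.9 and 557 FPKM in WT and at 453, 461 and 310.4 in PGRN KO. The groups did not overlap, and the means were 594 ± 32.7 and 408 ± 84.6 FPKM (SD, n = 3 each). The log2 difference of -0.56 ± 0.17 (SE) just missed the threshold (limma adjusted p = 0.0511), and -0.38 without replicate 6 passed it (limma adjusted p = 0.00591).

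Complex IV, cytochrome c oxidase, has 3 mitochondrial subunits, of which only mt-Co1 was among the 7 higher messengers. mt-Co1 (ENSMUSG00000064351, MT:5328-6872) was at 2489, 2587 and 2259 FPKM in WT and at 2127, 2171 and 1487 in PGRN KO. The groups did not overlap in FPKM but did when scaled to counted fragments, and replicates 4 and 5 were close to WT replicate 3. The log2 difference was -0.36 ± 0.17 (SE; limma adjusted p = 0.167), and -0.18 without replicate 6 (limma adjusted p = 0.102). It was the only one of the 7 higher messengers that was called in neither fit, and it was called in none of 18 other settings. mt-Co2 (ENSMUSG00000064354, MT:7013-7696) was at 30.8, 38.9 and 29.2 FPKM in WT and at 28.1, 26.2 and 39.5 in PGRN KO, and mt-Co3 (ENSMUSG00000064358, MT:8607-9390) at 9.22, 11.9 and 10.2, and 9.79, 8.22 and 9.96. Both overlapped between the genotypes and neither was called (log2 difference -0.09 and -0.15, limma adjusted p = 0.744 and 0.401). Without replicate 6 mt-Co2 no longer overlapped, at a log2 difference of -0.26 (limma adjusted p = 0.139), while mt-Co3 still did, at -0.19 (limma adjusted p = 0.239).

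Complex V, the ATP synthase, has mt-Atp6 and mt-Atp8. mt-Atp6 (ENSMUSG00000064357, MT:7927-8607) was at 8.25, 9.73 and 8.79 FPKM in WT and at 6.95, 7.60 and 21.6 in PGRN KO. Replicate 6 was the highest library for this gene and at 297% of the mean of the other two, whereas its nuclear twin Gm10925 had 77 fragments there against 89 and 97. The log2 difference was 0.22 ± 0.38 (SE; limma adjusted p = 0.691), and it turned to -0.26 without replicate 6, where the genotypes no longer overlapped (limma adjusted p = 0.0477). mt-Atp8 (ENSMUSG00000064356) had 4, 2 and 8 fragments in WT and 3, 1 and 1 in PGRN KO, too few to compare.

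**Figure D4:**
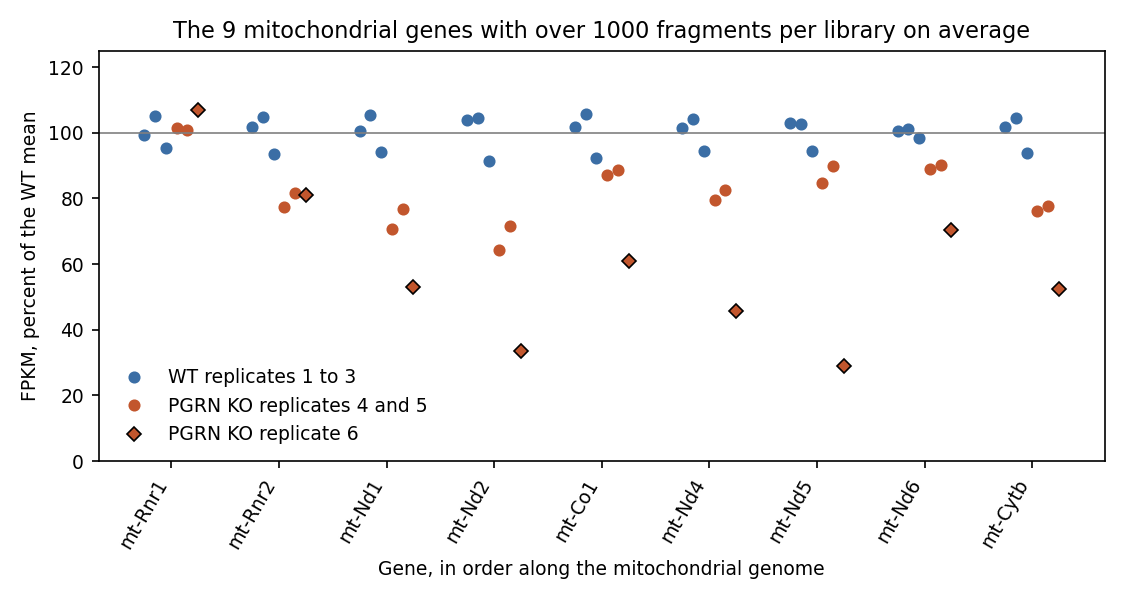
FPKM in each of the 6 libraries as a percent of the WT mean, for the 2 ribosomal RNAs and the 7 higher messengers in their order along the mitochondrial genome, with PGRN KO replicate 6 as diamonds. On this scale the messengers lie below WT in all PGRN KO libraries and lowest in replicate 6, while mt-Rnr1 lies among the WT values or above them and mt-Rnr2 is similar in the 3 PGRN KO libraries.

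Within PGRN KO, replicate 6 was lower than replicates 4 and 5 for the 7 higher messengers and not for the ribosomal RNAs. On log2(FPKM + 1), the 7 higher messengers had a median of -0.56 against the mean of the other two, with all 7 below 0 and a range of -1.59 to -0.35. Of the other 5 tested messengers, mt-Nd4l was lower (-1.68) and mt-Atp6 (1.45), mt-Nd3 (0.59), mt-Co2 (0.53) and mt-Co3 (0.13) were higher. The 2 ribosomal RNAs had a median of 0.05, and the 13 tested transfer RNAs ran from -1.89 to 1.14 with a median of 0.06. The median over all tested genes was 0.04, with quartiles of -0.24 and 0.31. Nuclear models no longer than the longest mitochondrial gene (1806 genes) had a median of 0.37 in the same comparison, with 23.1% of them below 0 and a 5th percentile of -0.96, and longer nuclear models (7049 genes) had one of -0.02. The 7 messengers thus had a negative median and the shorter nuclear models a positive one, though some of those models lay as low as the messengers' median. These models had no lower limit of length and were not matched to the messengers in length or base composition. The cause was not tested.

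Ratios among the messengers, as FPKM over FPKM within a library, are free of the library's scale. mt-Co1 over mt-Cytb averaged 4.11 in WT (SD 0.0597, n = 3) and 4.73 in PGRN KO (SD 0.050, n = 3). It differed between the genotypes without overlap and hardly at all among the PGRN KO libraries, replicate 6 included. mt-Nd6 over mt-Cytb was 0.470 ± 0.0198 and 0.575 ± 0.0491 (SD, n = 3 each), also without overlap. Relative to mt-Cytb, therefore, mt-Co1 and mt-Nd6 stood higher in PGRN KO. mt-Nd2 over mt-Nd1 was 0.359 to 0.383 in WT and 0.234 to 0.345 in PGRN KO. mt-Nd5 over mt-Cytb was 0.493 to 0.506 in WT, 0.557 and 0.580 in PGRN KO replicates 4 and 5, and 0.277 in replicate 6, so that replicate 6 lay on the other side of WT from its group. These ratios were chosen among many possible ones and carry no test. mt-Co1 shares 63.9% of its words with nuclear models, and the part of that in its ratio was not tested.

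The messengers also differ in how they end. In 3 of the 13 genes, mt-Co3, mt-Nd4 and mt-Cytb, the annotated gene stops at the T of an incomplete stop codon, and it is the poly(A) tail that completes it. Their last 24 bases are shown from GENCODE M21 (GRCm38, plus strand) with that T in capitals, at MT:9367-9390, MT:11521-11544 and MT:15265-15288. mt-Nd4 and mt-Cytb were among the 7 messengers that lay below WT in FPKM in every PGRN KO library, and mt-Co3 was not.
mt-Co3: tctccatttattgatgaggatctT
mt-Nd4: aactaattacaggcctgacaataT
mt-Cytb: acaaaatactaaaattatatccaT

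The 22 transfer RNA genes, of 59 to 75 bases, held 2738 fragments in all 6 libraries together. Only 3 averaged 10 fragments per library or more. These were mt-Tp, mt-Tc and mt-Tn, the transfer RNAs for proline, cysteine and asparagine, and they held 2417 of the 2738. All 3 are read from the same strand as mt-Nd6. The 8 transfer RNA genes of that strand held 2505 fragments and the 14 of the other strand held 233. The table does not separate mature transfer RNAs from longer RNAs that cover the same bases. Without the counting strand the fragments also cannot be told apart from RNA of the opposite strand. The 3 sequences are shown because they carry nearly all the counts, read 5′ to 3′ on the minus strand from GENCODE M21 (GRCm38) with the anticodon in capitals. mt-Tp lies at MT:15356-15422 beside the control region, and mt-Tc (MT:5192-5257) and mt-Tn (MT:5089-5159) flank a gap of 32 bases without a gene.
mt-Tp: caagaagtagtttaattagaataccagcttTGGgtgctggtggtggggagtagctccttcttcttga
mt-Tc: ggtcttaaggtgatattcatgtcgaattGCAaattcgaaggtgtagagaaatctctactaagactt
mt-Tn: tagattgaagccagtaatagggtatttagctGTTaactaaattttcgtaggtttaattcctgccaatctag

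None of these 3 was called. mt-Tp had 209, 198 and 291 fragments in WT and 215, 209 and 139 in PGRN KO, with a log2 difference of -0.43 ± 0.18 (SE; limma adjusted p = 0.129) on the log2(FPKM + 1) scale and -0.25 without replicate 6 (limma adjusted p = 0.142). mt-Tc had 153, 99 and 133 fragments in WT and 142, 162 and 152 in PGRN KO (limma adjusted p = 0.424). mt-Tn had 35, 49 and 50 fragments in WT and 56, 31 and 94 in PGRN KO (log2 difference 0.19, limma adjusted p = 0.750), and the difference was -0.21 without replicate 6. Replicate 6 was thus the lowest library for mt-Tp and the highest for mt-Tn.

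The 2 transfer RNAs that were called rested on few fragments. mt-Th, for histidine, had 3, 4 and 8 fragments in WT and 0, 2 and 1 in PGRN KO (limma adjusted p = 0.0257), and no fold is given because the PGRN KO values are at or under 3 fragments. mt-Tw, for tryptophan, had 6, 3 and 3 fragments in WT and 11, 11 and 6 in PGRN KO (limma adjusted p = 0.0489), and PGRN KO replicate 6 equalled WT replicate 1 in fragments. With limma voom on the fragments neither was called (adjusted p = 0.0691 for mt-Th and 0.159 for mt-Tw). mt-Th lost its call without WT replicate 2 (0.0844) or WT replicate 3 (0.0835), and mt-Tw without WT replicate 2 (0.154) or 3 (0.149) and without PGRN KO replicate 4 (0.121) or 5 (0.115). mt-Tg, for glycine, had 2, 3 and 2 fragments in WT and 6, 4 and 10 in PGRN KO, and was the one mitochondrial gene with every PGRN KO value above every WT value in FPKM (limma adjusted p = 0.0544).

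The other transfer RNAs gave no difference that passed the test. mt-Tl1, mt-Ta, mt-Ty, mt-Tr, mt-Ts2, mt-Tl2 and mt-Te averaged between 1.83 and 9.67 fragments per library. Of the 9 that failed the filter, mt-Ti was highest with 3 fragments in all, and mt-Tf, mt-Tv, mt-Tq, mt-Ts1, mt-Td and mt-Tk had 0 in every library, which allows up to 3 fragments in each as a one-sided limit (the intervals above are two-sided).

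**Figure D5:**
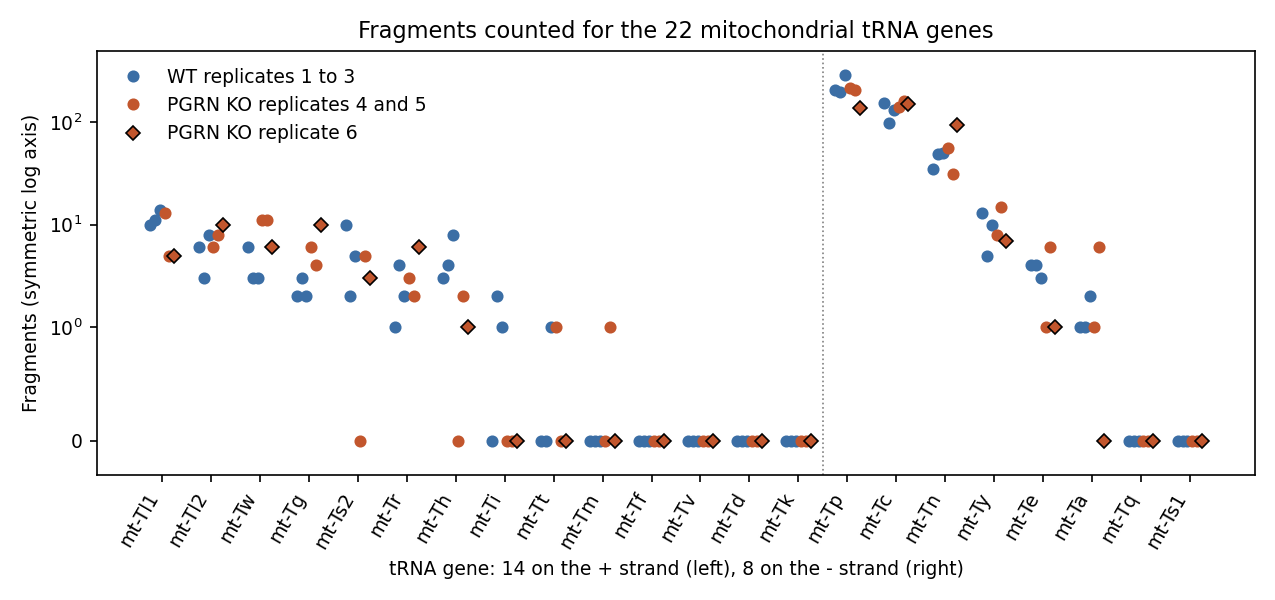
Fragments (symmetric log axis) in each library for the 22 mitochondrial transfer RNA genes, coloured by genotype. mt-Tp, mt-Tc and mt-Tn reach 31 to 291 fragments, and every other gene stays at or below 15.

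Most nuclear genes listed for making, processing and degrading mitochondrial RNA were not called. The list also held genes for copying mitochondrial DNA, such as Polg, Polg2 and Twnk. Of the 53 listed genes 37 were tested and 8 were called, 4 higher and 4 lower, which is 21.6% where 24.2% of all genes were called. Without replicate 6, 11 were called, 6 higher and 5 lower, where 41.3% of all genes were. Both shares were below those of all genes. Among the genes for transcription and copying of mitochondrial DNA, 2 of 10 tested were called. Tfam, which packages mitochondrial DNA and activates its promoters, rose from 2.89 ± 0.126 to 4.22 ± 0.114 FPKM (SD, n = 3 each; log2 difference 0.43, limma adjusted p = 0.0130). Tfb2m, which opens the promoters, fell from 2.44 ± 0.460 to 1.43 ± 0.194 FPKM (log2 difference -0.50, limma adjusted p = 0.0332). The polymerase gene Polrmt was at 0.875 ± 0.246 and 1.13 ± 0.196 FPKM (SD, n = 3 each; limma adjusted p = 0.342).

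Of 19 processing and modification genes tested, 4 were called. Fastk, known for its part in the making of mt-Nd6 RNA, rose from 5.83 to 8.41 FPKM (limma adjusted p = 0.0196), and Grsf1, an RNA granule protein, rose from 3.91 to 5.39 FPKM (limma adjusted p = 0.0402). Fastkd3 fell from 3.80 to 2.09 FPKM (limma adjusted p = 0.00666) and Trub2, a pseudouridine synthase family member, from 3.14 to 2.17 FPKM (limma adjusted p = 0.0214). Of 8 genes for RNA stability and decay, 2 were called. Lrpprc, whose product binds and stabilises mitochondrial messengers, fell from 3.14 ± 0.216 to 2.25 ± 0.236 FPKM (SD, n = 3 each; log2 difference -0.35, limma adjusted p = 0.0413). Pnpt1, the mitochondrial polynucleotide phosphorylase and an interferon-induced gene, rose from 9.43 ± 0.986 to 16.1 ± 2.68 FPKM (SD, n = 3 each; log2 difference 0.70, limma adjusted p = 0.0138).

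Nuclear genes for subunits of the same complexes were counted in the same fits. Of 71 genes for subunits of complexes I, III, IV and V, 69 were tested and 8 (11.6%) were called, all higher in PGRN KO and all in complex I. Over all tested genes 24.2% were called, 10.4% higher, so neither share of the subunits stood far above that of all genes. The subunits had a median log2 difference of 0.32 with 65 of 69 positive, where 4146 of all 8882 tested genes were positive. Without replicate 6 their median was 0.12 with 55 of 69 positive, where 3994 of all 8882 tested genes were, and 26.1% were called, 15 genes higher and 3 lower. In that fit 41.3% of all genes were called, 16.2% higher and 25.1% lower. In the same fits the median of the 7 higher mitochondrial messengers was -0.57 and -0.30, and the difference between the sets was not tested.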

How the data were processed

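RNA-seq libraries of 6 macrophage samples (3 WT, 3 PGRN KO) were analysed from 1 deposited table of FPKM values. Per the submitters' processing notes, the authors used CASAVA, HISAT2 2.0.5 on mm10 (GRCm38), featureCounts 1.5.0-p3 and DESeq2 1.20.0, and the study's methods name other versions and another counter. How reads with several matches and strand were handled is not stated there. Cell source and challenge ratio follow the labels. The authors' FPKM values gave whole fragments (within 0.001) for 100% of values once multiplied by gene length and each library's unit step, so depth was recovered (15996786 to 17551619 fragments). Levels in fragments carry counting error, and intervals cover that error only.

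WT and PGRN KO were tested with limma 3.58.1 (R 4.3.3) on log2(FPKM + 1), for genes whose mean reached 1 FPKM, with a mean-variance trend and no covariates, two-sided, adjusted by Benjamini-Hochberg. On this scale changes of low genes are understated. A count test on the recovered fragments was run as voom. The test was checked on simulated data. Sequences and coordinates came from GENCODE M21 (GRCm38), whose 37 mitochondrial genes matched the table. All protein-coding and ribosomal mitochondrial genes were named, with the transfer RNAs that passed the filter, nuclear factors past the threshold (and Polrmt, Tfam and Lrpprc), and the nuclear copies with at least 50% shared words and highest FPKM. The other copies (Gm13340 among them), the transfer RNAs at 0 and the ranges of mt-Tg, mt-Th and mt-Tp were named after their values were seen. Members and lists were chosen with earlier results of these data known. Alternatives covered the pseudocount, filter, scaling, voom, quality weights, GC and length correction and leaving out each library.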

Additional observations from a re-analysis of the deposited data

How the results depend on the processing

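With all 6 libraries limma called 4 mitochondrial genes, 3 lower and 1 higher, of 2151 over all genes, and 8 of the nuclear mitochondrial RNA factors. The 27 tested mitochondrial genes were compared with that fit in 479 gene and setting pairs. In 389 direction and side of the threshold were unchanged, 34 lost the call, 29 gained it and 27 changed sign. The mitochondrial count was 2 with a pseudocount of 0.1, 0.01, on the TPM scale or after quantile normalization, 0 without a filter on low values (7 at an unadjusted p under 0.05, while voom called 4), 9 with sample quality weights, 7 with the GC and length correction and 9 with that correction and without PGRN KO replicate 6. Lower calls numbered 0 without a filter, 1 on the TPM scale, with total fragments, with nuclear fragments or after quantile normalization, 7 with weights, 5 with the GC and length correction, and 7 with it and without replicate 6. Higher calls numbered 0 with the smaller pseudocounts, without a filter and with voom, and 2 with total or nuclear fragments, with weights, and with the correction, also without replicate 6. Leaving out 1 library gave 0 to 10 mitochondrial calls, 0 to 9 lower and 0 to 1 higher. It gave 713 to 3668 calls over all genes, and 1 to 11 factors. Calls over all genes were 1366 without a filter, 4225 with weights and 3708 with the correction and without replicate 6. Of all calls, 42.8% were higher as deposited, 60.3% on the TPM scale, 62.9% with total fragments and 62.6% with nuclear fragments. Factors called were 5 without a filter, 2 at a mean FPKM of at least 5, 5 on the TPM scale and 15 with weights. The mitochondrial share differed by -0.129 percentage points of fragments (-0.178 to -0.0530 leaving out 1 library) and by -0.290 of summed TPM. None of the genes whose sign changed was called with all 6 libraries.

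The log2 difference of mt-Ta was -0.67 and -1.72 with pseudocounts of 0.1 and 0.01 and -0.16 with voom, and -0.65 to 0.59 leaving out 1 library. For mt-Tn it was -0.21 to 0.63 leaving out 1 library and -0.12 with the correction and without replicate 6. For mt-Ty it was -0.0061 with voom, -0.12 with weights and -0.27 to 0.26 leaving out 1 library. For mt-Co2 it was 0.0089 and 0.0070 with total and nuclear fragments and -0.26 to 0.033 leaving out 1 library. For mt-Atp6 it was -0.19 with weights, -0.21 with the correction and without replicate 6 and -0.26 to 0.49 leaving out 1 library. For mt-Nd3 it was 0.028 on the TPM scale, 0.068 with total fragments, 0.067 with nuclear fragments, 0.014 after quantile normalization, 0.089 with the correction and -0.21 to 0.13 leaving out 1 library. The causes were not tested. No paired analysis was possible because no replicate number occurs in both genotypes. With 3 libraries a group, and 2 once replicate 6 is left out, the spread is known only roughly, and most transfer RNAs had too few fragments to show a difference.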
